A study of Drosophila melanogaster with 23 samples.

Results

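Cpr and Twdl genes encode structural proteins of the insect cuticle. They were taken here as the 95 protein-coding genes whose symbol begins with Cpr and a number (70 genes) or with Twdl (25 genes), out of 13911 protein-coding genes on the chromosome arms 2L, 2R, 3L, 3R, 4 and X. All 95 lay on those arms, with 6 on 2L, 22 on 2R, 35 on 3L, 24 on 3R, 8 on X and 0 on 4. A gene was called bound by a factor, or marked by a histone mark, in a library when the summit of a peak interval lay within 1 kb of the gene or inside it. The share of genes bound by a factor counts the genes that were bound in every one of its libraries.

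The chromatin came from wild-type Oregon-R embryos of Drosophila melanogaster, 2 to 3 h after egg laying, collected for 1 h and aged for 2 h at 25 °C. No sample carried a mutation or a transgene, and each library was made from whole embryos, so a peak can come from any of their cells. ChIP-nexus, which trims immunoprecipitated fragments with an exonuclease up to the bound protein, was done with 3 libraries for each of 6 transcription factors. These were Zelda (Zld) and the GAGA factor (GAF), the mesodermal factor Twist (Twi) with Dorsal (Dl), and Caudal (Cad) with Bicoid (Bcd). ChIP-seq was done for the histone marks H3K27ac and H3K4me1 with 2 libraries each, and a whole cell extract was not analysed here.

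Cpr proteins carry the chitin-binding consensus of Rebers and Riddiford, and Twdl (Tweedle) proteins form a separate family of cuticle proteins, of which TwdlD is known for mutations that make the body squat. The embryo secretes its first cuticle late in embryogenesis, long after the blastoderm stage, in epidermal cells. Bcd and Cad pattern the anteroposterior axis and Dl and Twi the dorsoventral axis, while Zld and GAF open chromatin for the zygotic genome. H3K27ac marks active promoters and enhancers and H3K4me1 marks enhancers. Transcription was not measured in these samples, so whether the genes were silent at this stage was read from no value here, and the marks are given instead.

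The cuticle genes are short and lie close together. Their median length was 1088 bp, against 2161 bp for all protein-coding genes, and 76 of the 95 were no longer than 2 kb. There were 14 groups of at least 3 members with no more than 10 kb between neighbours, and these groups held 64 members. A further 4 members lay in pairs and 27 lay alone. The window of 49 members touched a protein-coding gene outside the Cpr and Twdl set, and that of 46 touched no such gene. Windows of neighbouring members can still touch other members. Because a short gene offers less room for a summit, the 6516 protein-coding genes of at most 2 kb (genes up to 2 kb) are given below as a second comparison, and 119 odorant and gustatory receptor genes, which act in adult and larval sense organs, as a further set.

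The lists of the 18 factor libraries held 27232 to 54449 intervals on the arms, with GAF the shortest at 27232 to 31013, and those of the 4 histone libraries 6067 to 14722. The lists hold no read counts, so depth is unknown and no counting interval can be given. The labels do not say that libraries of 1 group came from separate collections, so the p-values below measure only the spread between these libraries, which may be technical.

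Nearly all cuticle genes had a histone-mark profile without H3K27ac or H3K4me1, whereas most, like most genes of the genome, were bound by at least 1 factor. H3K27ac was found in both libraries near 2 of 95 members (2.11%), against 55.2% of all protein-coding genes, 43.3% of genes up to 2 kb and 12.6% of the receptor genes. H3K4me1 was also found in both libraries near 2 members (2.11%), against 18.4% of all genes, 10.4% of genes up to 2 kb and 3.36% of the receptor genes. At least 1 of the 6 factors bound 86 members (90.5%), against 95.8% of all genes and 91.7% of genes up to 2 kb. No member was free of intervals in all 22 lists.

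Zld bound the largest share of the cuticle genes and GAF the smallest. Zld was found at 69 members (72.6%), against 81% of all genes and 67.8% of genes up to 2 kb. Bcd was found at 54 members (56.8%), against 81.2% and 68.0%, and Cad at 49 (51.6%), against 76.5% and 62.3%. Twi was found at 53 members (55.8%), against 80% and 66.5%, and Dl at 45 (47.4%), against 73.4% and 55.8%. GAF was found at 29 members (30.5%), against 61% and 39.4%. Thus for each factor the members were bound less often than all genes, and for each factor other than Zld also less often than genes of up to 2 kb. These differences between gene sets were described and not tested.

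Single libraries of a factor differed by up to 18 members. Zld intervals lay near 74, 82 and 82 of the 95 members in its 3 libraries, a mean of 83.5% ± 4.86 (SD, n = 3). For Bcd the counts were 66, 68 and 67 members (70.5% ± 1.05), and for Cad 56, 68 and 71 (68.4% ± 8.36). For Dl they were 71, 59 and 77 (72.6% ± 9.65), and for Twi 59, 65 and 70 (68.1% ± 5.80). GAF had 42, 54 and 40 members (47.7% ± 7.97). The GAF libraries lay below every library of the other factors, while the libraries of Bcd, Cad, Dl and Twi overlapped. Of the Zld libraries, replicate 1 with 74 members lay below replicate 3 of Dl with 77, so the groups of Zld and Dl overlapped as well. H3K27ac had 3 and 8 members and H3K4me1 2 and 2.

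**Figure D1:**
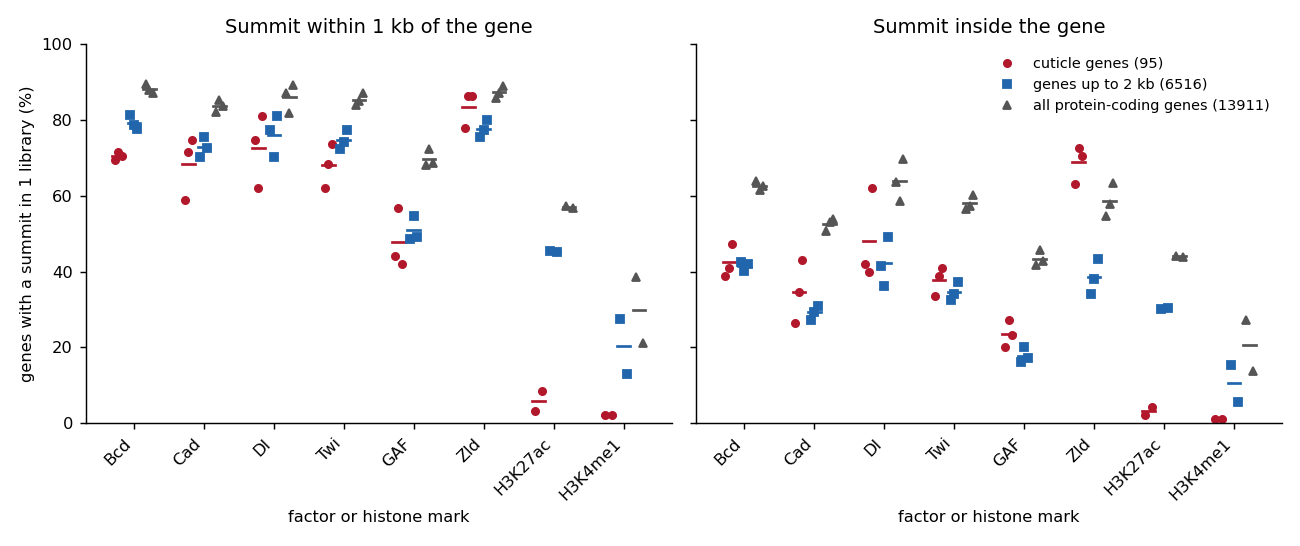
Share of genes (%) with a summit in each library, within 1 kb of the gene (left) and inside the gene (right), for the 95 cuticle genes, the 6516 genes up to 2 kb and all 13911 protein-coding genes. Each point is 1 library and each bar the mean of a group. Inside genes, the Zld points of the cuticle genes lie far above those of genes up to 2 kb, and the H3K27ac points of the cuticle genes stay near 0 in both panels.

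In value, the widest gap between the cuticle genes and genes up to 2 kb for any factor was that of Zld intervals inside genes. These sets were not matched in length, as 76 members were no longer than 2 kb and the longest member spanned 18590 bp. Zld summits lay inside the gene itself, in all 3 libraries, at 54 members (56.8%), against 46.9% of all genes and 24.8% of genes up to 2 kb. In the single libraries a Zld summit lay inside 60, 69 and 67 members. Zld was the factor for which the members' share was above that of all genes. Bcd summits lay inside 34 members (35.8%), against 50.8% of all genes and 26.6% of genes up to 2 kb. Cad summits lay inside 20 members (21.1%), against 42% and 17.7%, and Dl summits inside 19 (20.0%), against 45.3% and 18.7%. Twi summits lay inside 29 members (30.5%), against 49.7% and 24.8%, and GAF summits inside 10 (10.5%), against 35% and 9.79%. For these 5 factors the members' share lay above that of short genes and below that of all genes. Longer bodies offer more room for a summit, and length was not matched in these shares. Per kb of gene body, the members' mean lay below that of short genes for Bcd, Dl, Twi and GAF. It lay slightly above for Cad (0.294 against 0.289 summits per kb) and above for Zld (0.591 against 0.414). The Zld difference depended on weak intervals: at a −log10 q of at least 10, Zld summits lay inside 9.47% of the members and 10.9% of genes up to 2 kb. H3K27ac summits lay inside 0 members in both libraries (40.4% of all genes) and H3K4me1 summits inside 1 (11.4% of all genes).

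Counted per kb of gene body with all intervals, Zld again stood highest in the members. The merged bodies of the members span 186.1 kb, and they held 0.591 ± 0.0651 Zld summits per kb (SD, n = 3), against 0.338 ± 0.0427 over all gene bodies, 0.414 ± 0.0666 over genes up to 2 kb and 0.309 ± 0.0555 over the receptor genes. The lowest Zld library gave 0.521 summits per kb in the members and the highest gave 0.485 in genes up to 2 kb. The same 3 libraries were counted over each gene set, so the SDs do not measure the uncertainty of a difference between sets. For Bcd the density was 0.372 ± 0.0358 in the members, 0.362 ± 0.0273 over all gene bodies and 0.429 ± 0.0156 over genes up to 2 kb. For Dl it was 0.374 ± 0.103, 0.352 ± 0.0592 and 0.445 ± 0.0868. Thus per kb the Bcd and Dl means of the members lay slightly above those over all gene bodies and below those over short genes. For Cad it was 0.294 ± 0.0589, 0.311 ± 0.0240 and 0.289 ± 0.0216, and for Twi 0.306 ± 0.0426, 0.333 ± 0.0272 and 0.347 ± 0.0288. For GAF it was 0.161 ± 0.0215, 0.204 ± 0.0151 and 0.171 ± 0.0218. H3K27ac reached 0.0161 summits per kb in the members and 0.124 over all gene bodies. With 1 kb added on each side, the Zld density was 0.433 ± 0.0399 in the members and 0.421 ± 0.0404 in genes up to 2 kb. Among the 5000 strongest intervals the order in gene bodies was reversed. The Zld density was then 0.0125 in the members, 0.0258 over all gene bodies and 0.0299 in genes up to 2 kb. The number of intervals near the members was 134 to 161 in the Zld libraries, and 72.4% to 75.2% of these summits lay inside a member, whereas 48.3% to 63.6% did in the libraries of the other factors.

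With all intervals used, Twdl genes carried this pattern more often than Cpr genes. Zld summits lay inside 20 of 25 Twdl genes (80%) and inside 34 of 70 Cpr genes (48.6%). Within 1 kb, Zld was found at 22 Twdl genes (88%) and 47 Cpr genes (67.1%). This order did not hold for stronger Zld intervals. At a −log10 q of at least 10, Zld stayed within 1 kb of Twdlbeta, TwdlJ, TwdlN and Twdlalpha in all 3 libraries. That was a smaller share than for Cpr genes, and TwdlJ and TwdlN share their Zld interval. The members with Zld among the 5000 strongest in all 3 libraries were all Cpr genes. Of the 25 Twdl genes, 12 lie in 1 group of neighbours. GAF was found at 5 Twdl genes (20%) and 24 Cpr genes (34.3%). A separate list of 32 other cuticle proteins, such as the Lcp and Ccp84A families, held a Zld summit inside 16 genes (50%), and the difference between these families was not tested.

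With a window of one width for every gene, reaching 1.5 kb to either side of the gene's midpoint, the length searched was equal, although the window leaves out the ends of long genes. Zld was then found at 66 members (69.5%), against 57.9% of all genes and 67.1% of genes up to 2 kb. Bcd was found at 45 members (47.4%), against 59.5% and 66.8%, and Cad at 41 (43.2%), against 52.4% and 61.0%. Dl was found at 40 (42.1%), against 47% and 54.5%, Twi at 47 (49.5%), against 58% and 65.1%, and GAF at 21 (22.1%), against 35% and 37.4%. In this window Zld again was the factor at which the members were above all genes, and its share was close to that of short genes. H3K27ac was found at 4 members (4.21%) against 34.1%, namely Cpr31A, Cpr47Eg, Cpr60D and Cpr78Cc, and H3K4me1 at 1 (1.05%) against 9.04%, which was Cpr60D. These genes were named after their values were seen.

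The median interval near cuticle genes ranked around the middle of the list or lower. It ranked lowest for Twi and GAF, and the ranges of Bcd, Cad and Zld overlapped. Within each list, intervals were ranked by the authors' −log10 p, and the median interval near the members stood at 58.3% to 63.6% of the list in the Zld libraries, where 0% is the strongest. It stood at 48.7% to 59.9% for Bcd, 54.1% to 55.6% for Dl, 59.7% to 66.6% for Cad, 70.2% to 73.0% for Twi and 69.3% to 77.3% for GAF. The median fold near the members was below that of the list in each library of Zld, Cad, Twi and GAF, and above it in replicates 1 and 2 of Bcd (2.70 against 2.57, 2.67 against 2.60) and of Dl (2.37 against 2.34, 2.47 against 2.43). Of the Zld intervals with a −log10 q of at least 10, summits were found near 21 members (22.1%) in all 3 libraries, against 64.1% of all genes and 47.1% of genes up to 2 kb. Bcd kept 32 members (33.7%) at this level against 63.7% of all genes, Cad 27 (28.4%) against 60.1%, Twi 23 (24.2%) against 69%, GAF 13 (13.7%) against 47.9% and Dl 3 (3.16%) against 35.2%. H3K27ac had 0 members against 45.4% and H3K4me1 0 against 5.23%.

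Among the 5000 strongest intervals of each library, the members' share was below that of all genes for each factor. Bcd was found at 15 members (15.8%), against 23.8% of all genes and 13.9% of genes up to 2 kb. This share is near that of short genes: in replicate 1 alone it was 15.8% against 17.2%, and within 1 kb the strong Bcd summits numbered 0.0436 per kb in the members against 0.0561 per kb in short genes. In gene bodies alone the order was the reverse. There the strong Bcd summits numbered 0.0501 per kb in the members, 0.0404 in short genes and 0.0337 over all genes. Zld, found at the most members when all intervals were used, fell to 4 (4.21%), against 30% and 19.7%. Cad was found at 7 members (7.37%), against 23.1% and 12.7%, and Twi at 5 (5.26%), against 22.8% and 11.9%. GAF was found at 3 members (3.16%), against 19.6% and 6.51%, and Dl at 1 (1.05%), against 20.8% and 11.6%. H3K27ac was found at 0 members against 40.8%, and H3K4me1 at 1 against 13.6%. The differences between factors were not tested.

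**Figure D2:**
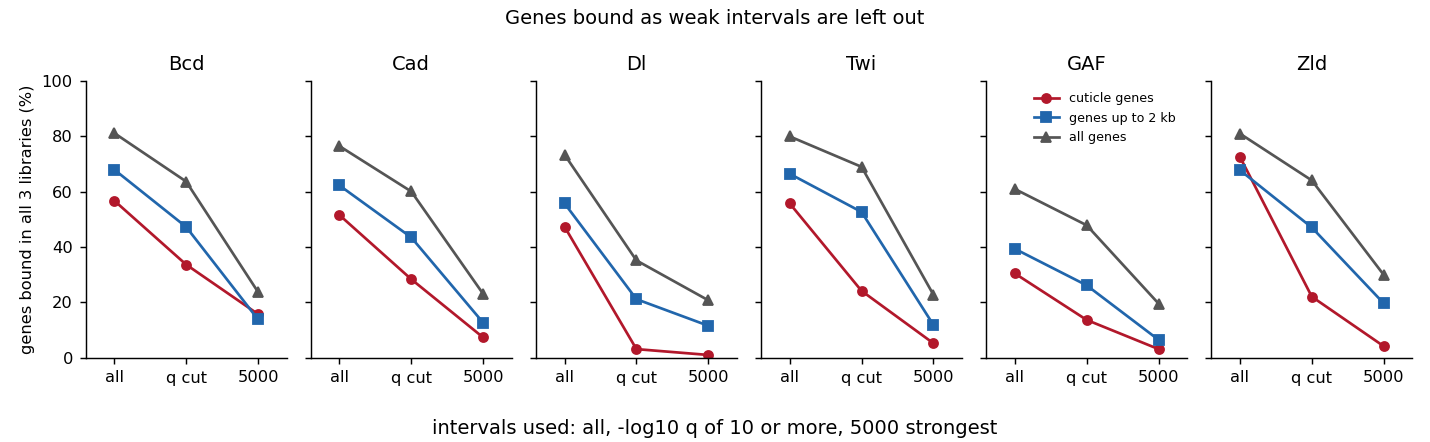
Share of genes bound in all 3 libraries (%) when all intervals, those with a −log10 q of at least 10, or the 5000 strongest of each library were used, for each factor. The Zld line of the cuticle genes falls from 72.6% to 4.21%, and the Bcd line ends at 15.8%, close to genes up to 2 kb at 13.9%.

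The 15 members with a strong Bcd interval in all 3 libraries were Cpr35B, Cpr49Ab, Cpr49Ae, Cpr60D, Cpr64Aa, Cpr67Fa1, Cpr72Eb, Cpr72Ec, Cpr73D, Cpr78Cc, TwdlW, TwdlJ, TwdlN, TwdlS and Twdlalpha. The strongest lay between the neighbours TwdlJ and TwdlN, at chr3R:26631006-26631510, the stretch covered in all 3 Bcd libraries. TwdlJ itself spans chr3R:26629918-26630825 and TwdlN chr3R:26631869-26632956 in the RefSeq table of Release 6. The authors' fold enrichment of this Bcd interval was 23.8, 28.5 and 23.1 in the 3 libraries, and it ranked 215, 199 and 220 among 46378 to 54286 intervals. The summit lay 405 to 420 bp beyond the end of TwdlJ, outside both genes. Twi intervals covered the same stretch with a fold of 18.8, 16.4 and 17.3 (ranks 3825 to 4086), GAF with 5.42, 7.19 and 5.07, and Zld with 4.27, 3.41 and 4.44. No Cad summit lay within 1 kb of TwdlJ in any library.

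A second strong Bcd interval lay inside TwdlS, in the same group of neighbours, at chr3R:26636995-26637533. Its fold was 15.3, 16.8 and 14.9 in the 3 libraries, with ranks of 688 to 786. Zld and Twi also had intervals inside TwdlS over the same stretch, with a fold of 2.75 ± 0.598 (SD, n = 3) and ranks of 18161 to 34738 for Zld, and of 5.41 ± 1.35 and ranks of 13355 to 26996 for Twi.

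Cpr72Eb and Cpr72Ec shared a region in which 4 factors were strong, inside Cpr72Ec (chr3L:16365894-16367340). The Bcd stretch was chr3L:16365924-16366885, with a fold of 14.6, 14.6 and 12.5. Cad covered chr3L:16366403-16366758 with a fold of 21.6, 17.9 and 16.8, and these ranks of 432 to 875 were the best of any Cad interval near a member. GAF covered chr3L:16366286-16366787 with a fold of 33.5, 40.0 and 38.2, and Zld chr3L:16366353-16366788 with 18.8, 13.6 and 7.82. No H3K27ac region covered in both libraries lay within 10.2 kb of this group of 3 genes.

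Cpr73D, the longest member at 18590 bp, overlaps Obp73a, which encodes an odorant-binding protein, and Ogdh, which encodes a subunit of oxoglutarate dehydrogenase, so its intervals cannot be given to 1 gene. Zld intervals there had a fold of 21.1, 20.3 and 12.7 at chr3L:16955252-16955578 (ranks 861 to 1966), and Dl intervals at the same place a fold of 5.65, 4.80 and 4.22. This was the single member with a Dl interval among the 5000 strongest in all 3 libraries. Bcd had its summit elsewhere in the gene, at chr3L:16950285-16950859, with a fold of 11.6 ± 1.25.

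Among the 5000 strongest intervals, Cad was found at Cpr35B, Cpr49Ac, Cpr50Cb, Cpr65Ec, Cpr72Eb, Cpr72Ec and Cpr73D, all of them Cpr genes. Zld was found at Cpr60D, Cpr72Eb, Cpr72Ec and Cpr73D, of which Cpr72Eb and Cpr72Ec share their Zld interval. At Cpr60D the gene nearest to the Zld and Bcd summits was CG30161. Twi was found at Cpr49Ae, Cpr65Az, Cpr76Ba, TwdlJ and TwdlN, and GAF at Cpr72Eb, Cpr72Ec and TwdlT. Cad lay beside Cpr49Ac at chr2R:12385690-12386050 with a fold of 15.0 ± 2.58, and beside Cpr65Ec at chr3L:7094075-7094368 with 15.3 ± 3.01. Twi lay beside Cpr76Ba at chr3L:19516498-19517197 with 25.6 ± 0.888, beside Cpr65Az at chr3L:6161757-6162136 with 22.6 ± 2.43 and inside Cpr49Ae at chr2R:12404266-12404827 with values of 20.1, 16.2 and 17.7. The GAF interval next to TwdlT, at chr3R:27048303-27049159 with a fold of 34.3 ± 3.09, had its summit inside the neighbouring gene RYa-R, a neuropeptide receptor. GAF also lay beside Cpr50Cb (28.3 ± 3.84) and inside Cpr47Ea (24.3 ± 2.89). Folds are the authors' values, ranks follow from the authors' −log10 p, and neither is comparable between factors.

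The number of factors per gene was spread over the whole range. Of the 95 members 9 were bound by 0 factors in all their libraries (9.47%, against 4.16% of all genes and 8.29% of genes up to 2 kb), and 13 by 1 factor (13.7%, against 6.42% and 11.9%). All 6 factors bound 13 members (13.7%), against 47.4% of all genes and 1499 of the 6516 genes up to 2 kb. All 13 with 6 factors were Cpr genes, namely Cpr47Ea, Cpr47Ef, Cpr49Ac, Cpr50Ca, Cpr50Cb, Cpr51A, Cpr56F, Cpr65Ec, Cpr72Eb, Cpr72Ec, Cpr73D, Cpr92F and Cpr12A. Of these 13, 0 carried H3K27ac in both libraries, whereas 76.9% of the 6594 protein-coding genes with 6 factors did, and 80.1% of the 1499 with 6 factors that were no longer than 2 kb.

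The 9 members without a factor in all its libraries were Cpr30B, Cpr31A, Cpr65Ax1, Cpr65Ay, Cpr67B, Cpr78Ca, TwdlO, Cpr100A and Cpr5C. They were not free of intervals. Cpr67B had the fewest, in 1 of the 18 factor lists, and the median over all members was 13 lists. Cpr65Ax1 and Cpr65Ax2 are near-identical copies, so reads of these genes may have been split or lost, and their values of 6 and 12 lists are uncertain.

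Where a single factor was found, it was most often Zld. Of the 13 members with 1 factor 7 had Zld (53.8%), namely Twdlbeta, Cpr49Ad, Cpr64Ab, Cpr64Ac, Cpr65Av, Cpr65Ea and Cpr67Fa2, whereas 16.8% of the 893 protein-coding genes with 1 factor had Zld. The neighbours Cpr64Ab and Cpr64Ac had the same mean Zld rank of 33111, so they share intervals and are not independent. Only Twdlbeta of the 7 kept Zld in all its libraries at a −log10 q of at least 10. Twdlbeta had a Zld interval inside the gene with a fold of 3.12, 3.00 and 2.51 at chr2R:11862604-11862955. Dl was the single factor at Cpr47Ec and TwdlZ, Twi at Cpr47Eg and Cpr72Ea, Bcd at TwdlQ and Cad at Cpr67Fb.

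**Figure D3:**
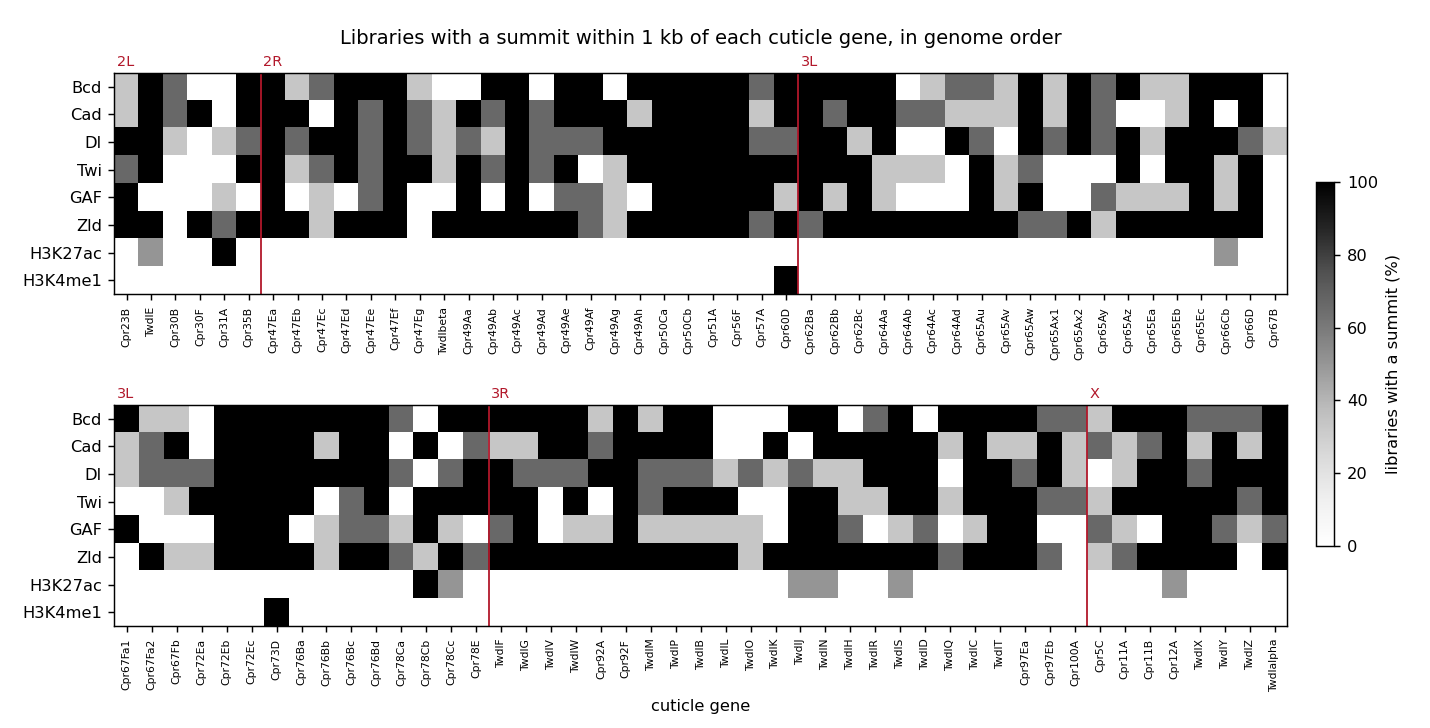
Share of the libraries of each factor or mark (%, white 0 and black 100) with a summit within 1 kb of each of the 95 cuticle genes, in genome order by chromosome arm. The Zld row is black for 69 genes and the H3K27ac and H3K4me1 rows are nearly empty.

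Longer members were bound by more factors. The 32 shortest members (457 to 868 bp) had 2.31 ± 1.82 factors (SD over genes), the next 31 (870 to 1427 bp) 2.84 ± 1.51 and the 32 longest (1447 to 18590 bp) 4.28 ± 1.76. Spearman's rho between length and number of factors was 0.491 over the 95 members and 0.585 over all 13911 genes, as a description across genes that share libraries. From the 32 shortest to the 32 longest members, Twi went from 12 to 26 genes, Bcd from 13 to 26 and GAF from 6 to 19. Dl went from 11 to 20, Cad from 13 to 20 and Zld from 19 to 26.

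Gene by gene, occupancy by a factor was tested against the other 5 factors with Fisher's exact test (two-sided, 3 libraries against 15, Benjamini-Hochberg adjustment over all 13911 genes, called at an adjusted p under 0.05). GAF alone gave calls. The GAF lists were also the shortest, at 27232 to 31013 intervals, and whether list length bears on the calls was not tested. GAF was found in fewer libraries than the others at 3 members, TwdlE, Cpr47Ed and Cpr76Ba, against 5.23% of all genes. It was found in more libraries at 0 members, against 0.0575% of all genes. At each of the 3 genes GAF had a summit in 0 of 3 libraries and the other factors in 15 of 15 (exact p = 0.0012, adjusted p = 0.0232), which is the smallest p this design can give. With a −log10 q of at least 10 or with summits inside genes, 0 of these 3 calls remained. With the replicate number as a block, 0 genes were called in all. The smallest p of that test is larger, so it cannot decide on these 3 calls. The share of 3 in 95 is below that of all genes, and so it is no result about the cuticle genes as a set.

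For the other 5 factors Fisher's exact test called 0 members and 0 genes in all after adjustment. Before adjustment, at an exact p under 0.05, Zld was more often present than the other factors at 7 members and less often at 0, against 0.748% and 0.69% of all genes. The 7 were Cpr30F, Twdlbeta, Cpr64Ab, Cpr64Ac, Cpr65Av, Cpr65Ea and TwdlK, each with Zld in 3 of 3 libraries and the other factors in 3 or 4 of 15 (Fisher's exact test, adjusted p = 1). Cpr64Ab and Cpr64Ac share their Zld intervals, so they are not independent calls. Unadjusted calls of more and fewer were 1 and 2 members for Bcd, against 1.44% and 0.999% of all genes, and 2 and 5 for Cad, against 0.733% and 1.96%. They were 0 and 2 for Dl, against 0.748% and 0.855%, and 1 and 3 for Twi, against 0.992% and 2.22%. GAF had 0 and 14, against 0.798% and 14.4%.

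The largest group of neighbours was the 12 Twdl genes from TwdlM to TwdlD, at chr3R:26619118-26641054, a stretch of 21.9 kb with no other protein-coding gene. Zld was found at 11 of the 12 genes in all 3 libraries, Cad at 9, Twi at 7, Bcd at 5, Dl at 3 and GAF at 2. The exception for Zld was TwdlO, with Zld in 1 of 3 libraries. The 3 Zld libraries had 12, 14 and 14 summits within 1 kb of the stretch, of which 11, 13 and 13 lay inside a gene, and the remaining 1 in each library was the summit between TwdlJ and TwdlN. Their fold was low, with a highest value of 4.44 and a median of 2.38. For Bcd, 3, 3 and 2 of 7, 7 and 5 summits lay inside a gene. H3K27ac had 0 summits here in replicate 1 and 3 in replicate 2, at TwdlJ, TwdlN and TwdlS, with a highest fold of 2.35. H3K4me1 had 0 in both.

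**Figure D4:**
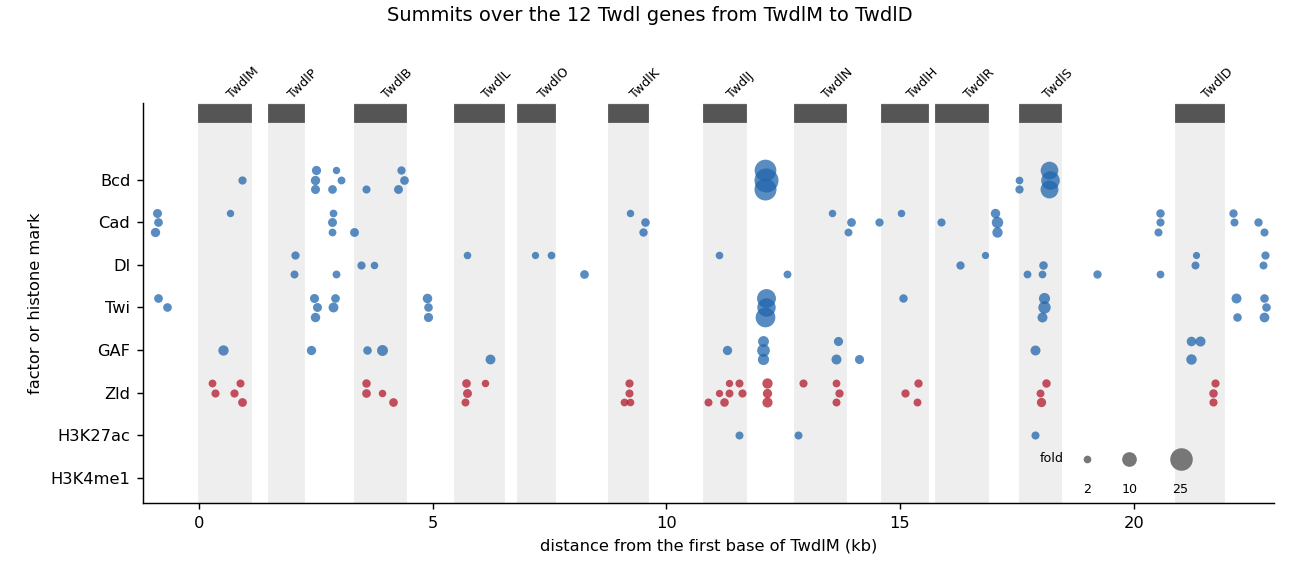
Summits of all libraries across the 12 neighbouring Twdl genes, by distance (kb) from the first base of TwdlM. Grey bands are genes, each row of dots within a factor is 1 library and the area of a dot grows with the authors' fold. Zld dots fall inside the bands except for the column between TwdlJ and TwdlN, where Bcd and Twi have their largest dots.

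In other groups the factors were spread differently. Zld was found at all 4 genes from Cpr64Aa to Cpr64Ad and at all 4 from Cpr49Aa to Cpr49Ad, while Twi was found at 0 of the former. The group from Cpr76Ba to Cpr76Bd had Bcd and Dl at all 4 genes and GAF at 0. In the group of 7 from Cpr47Ea to Cpr47Eg, Zld was found at 5 genes and GAF at 2. The 7 genes from Cpr65Au to Cpr65Az, among which 11 other protein-coding genes lie, had Zld at 4.

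The cuticle genes also lay far from H3K27ac. A region was counted where at least 50 bp were covered in both H3K27ac lists. The median distance from a member to the nearest such region was 16.6 kb (quartiles 9.31 and 28.3 kb), against 0 kb for all genes, 1.5 kb for genes up to 2 kb and 7.99 kb for the receptor genes. The median was 15.5 kb for Cpr genes and 60.5 kb for Twdl genes. The Twdl median rests on the group of 12, all at least 75.6 kb away, with TwdlO the farthest at 89.1 kb. Only Cpr60D overlapped such a region (1.05%, against 50.1% of all genes), and 14 members had one within 5 kb (14.7%, against 71.9%). Neighbouring members share their distances, so genes of 1 group are not independent.

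**Figure D5:**
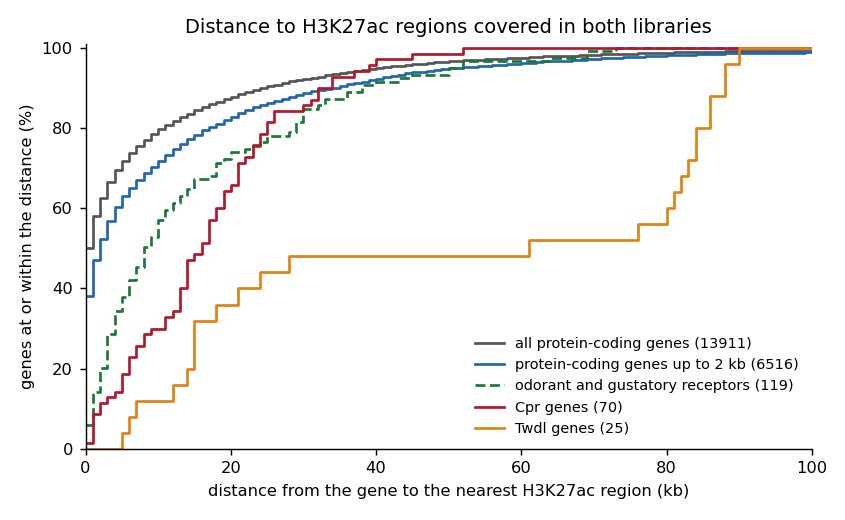
Cumulative share of genes (%) by distance (kb) to the nearest H3K27ac region covered in both libraries. The curve of the Cpr genes reaches 50% near its median of 15.5 kb and that of the Twdl genes at 60.5 kb, while 50.1% of all genes overlap such a region.

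The few marked members had weak intervals or shared them with a neighbour. At Cpr78Cb the H3K27ac stretch chr3L:21297177-21297332 had a fold of 2.28 and 2.33 and ranked 11744 of 14722 and 10077 of 13934, and its summit lay in Edg78E, another cuticle protein gene. At Cpr31A the best-ranked H3K27ac intervals of the libraries did not overlap, with a fold of 2.3 and 1.77. A region covered in both H3K27ac lists lay 0.63 kb from the gene. In 1 of 2 H3K27ac libraries intervals lay near 7 more members, TwdlE in replicate 1 and Cpr66Cb, Cpr78Cc, TwdlJ, TwdlN, TwdlS and Cpr12A in replicate 2. Without replicate 1 the share of marked members was 8.42%, and without replicate 2 it was 3.16%, so 1 library decides this value. H3K4me1 lay in both libraries inside Cpr73D at chr3L:16956281-16956444, where Ogdh lies too, with a fold of 2.93 and 3.84. At Cpr60D the best-ranked H3K4me1 intervals of the libraries lay on different sides of the gene. A region covered in both H3K4me1 lists lay 0.33 kb from the gene. By summits within 1 kb of the gene, no member carried both marks in both libraries, although Cpr60D did by the midpoint window.

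Genes with other parts in cuticle formation were marked by H3K27ac at higher shares than the Cpr and Twdl genes. For reading these counts, the shares of all genes within 1 kb were 81% for Zld, 81.2% for Bcd, 61% for GAF, 55.2% for H3K27ac and 18.4% for H3K4me1. Of 12 regulators of the cuticle programme, such as grh, ovo and the ecdysone receptor gene EcR, all 12 were bound by each of the 6 factors, 9 carried H3K27ac (75%) and 6 H3K4me1 (50%). Of 20 genes of chitin synthesis and matrix, such as the chitin synthase gene kkv, all 20 were bound by Zld and by Bcd, 18 by GAF, and 9 carried H3K27ac (45%), below the share of all genes. Of 7 tanning genes, which act in cuticle hardening and colour, 3 carried H3K27ac (42.9%), also below that share. Of the 32 other structural cuticle proteins, 20 were bound by Zld (62.5%), 23 by Bcd, 12 by GAF and 3 carried H3K27ac (9.38%). These lists differ from the Cpr and Twdl genes in gene length as well, and the differences between lists were not tested.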

How the data were processed

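The analysis started from 22 peak lists, 1 per library. Per the submitters' processing notes, cutadapt 2.5, Bowtie2 2.3.5.1, MACS2 2.2.7.1 and the build dm6 were used. How multiply matching reads were handled, and at what threshold peaks were called, is not given in the sources used here. Each deposited line carries a whole-number score, which matched 10 times the −log10 q rounded down on 99.0% to 100% of lines. It also carries the authors' fold enrichment as a ratio, and the deposited −log10 p-value and −log10 q-value, the latter never below 1.30 to 1.72 in a list. Column 10 gives the summit's offset from the start. Peaks were called per library, and these values are the authors' own, used only to describe, rank or filter within a list. GAF and Zld lists bear the numbers 1, 3 and 4 but their sample titles 1, 2 and 3, which leaves their replicate numbers uncertain.

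Genes came from the RefSeq table of Drosophila Release 6, which the build dm6 also denotes. It gives no strand or exons, so promoters, introns and UTRs were not separated. The members, the other lists and the tests were chosen with earlier results of these data known. Of the list symbols, 20 of 21 chitin genes, 7 of 8 tanning genes and all 12 regulators were matched. Occupancy per gene was tested with Fisher's exact test (scipy 1.17.1, statsmodels 0.14.6 for the adjustment), and the test was tried on generated lists first. Python 3.11.15 was used. The genes named are the 3 best ranked members per factor or mark, those with 6, 1 or 0 factors, those with both marks and those past the test. Members among the 5000 strongest intervals and those marked in 1 library were named after their values were seen. Windows, interval strength, the number of libraries required and single libraries were varied as alternatives. Promoter motifs and protein features were not analysed here.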

Additional observations from a re-analysis of the deposited data

How the results depend on the processing

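The shares depend on the window and on the strength of intervals. Summits inside the gene gave 35.8% for Bcd, 21.1% for Cad, 20.0% for Dl, 30.5% for Twi, 10.5% for GAF, 56.8% for Zld and 1.05% for H3K4me1. Within 5 kb they gave 100% for Bcd and Cad, 98.9% for Dl, 97.9% for Twi and Zld, 75.8% for GAF, 14.7% for H3K27ac and 8.42% for H3K4me1. The window around the midpoint gave 47.4% for Bcd, 43.2% for Cad, 49.5% for Twi, 22.1% for GAF and 1.05% for H3K4me1. Within 500 bp of either gene end the shares were 33.7% for Bcd and Twi, 23.2% for Cad, 17.9% for Dl, 16.8% for GAF, 46.3% for Zld and 0% for H3K4me1. Any base of the interval within 1 kb gave 62.1% for Bcd and 6.32% for H3K27ac. A −log10 q of at least 10 gave 33.7% for Bcd, 28.4% for Cad, 3.16% for Dl, 24.2% for Twi, 13.7% for GAF, 22.1% for Zld and 0% for H3K4me1. The 5000 strongest by −log10 p gave 15.8% for Bcd, 7.37% for Cad, 1.05% for Dl and H3K4me1, 5.26% for Twi, 3.16% for GAF and 4.21% for Zld, and those by fold 15.8%, 8.42%, 1.05% for both, 5.26%, 6.32% and 6.32%. Counting a summit only where its nearest protein-coding gene was a member gave 52.6% for Bcd, 43.2% for Cad, 35.8% for Dl and 1.05% for H3K4me1. With 2 of 3 libraries required, or 1 of 2 for a mark, the shares were 84.2% for Zld, 70.5% for Bcd, 77.9% for Dl, 66.3% for Cad, 67.4% for Twi, 43.2% for GAF and 9.47% for H3K27ac. Zld was the highest of the factors for summits inside the gene, for those at gene ends and with 2 of 3 libraries, and Bcd for strong intervals by each rule. The means of single libraries were 83.5% for Zld, 68.4% for Cad, 68.1% for Twi, 70.5% for Bcd, 72.6% for Dl and 47.7% for GAF. Cpr genes alone gave 67.1% for Zld and 2.86% for H3K4me1, and Twdl genes alone 60% for Cad, 64% for Twi, 20% for GAF, 88% for Zld and 0% for H3K4me1.

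Alternatives added after seeing the data combined the gene body with strength. Among the 5000 strongest they gave 2.11% for Zld, 7.37% for Bcd, 3.16% for Cad and 1.05% for Twi, Dl, GAF and H3K4me1. At a −log10 q of at least 10 they gave 17.9% for Bcd, 9.47% for Cad and Zld, 1.05% for Dl, 10.5% for Twi, 7.37% for GAF and 0% for H3K4me1. The 46 members whose window touched no protein-coding gene outside the Cpr and Twdl set gave 60.9% for Bcd and 0% for H3K4me1. Summits per kb were added as well. Leaving out 1 library gave 58.9% to 63.2% for Bcd, 52.6% to 62.1% for Cad, 51.6% to 66.3% for Dl, 57.9% to 62.1% for Twi, 32.6% to 37.9% for GAF, 73.7% to 80.0% for Zld, 3.16% to 8.42% for H3K27ac and 2.11% in each case for H3K4me1. All these shares moved by construction where windows narrow, intervals are fewer or fewer libraries are asked for, and no other cause was tested.

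The 3 members called for GAF (736 genes in all) became 0 at a −log10 q of at least 10 (626 genes), 1 among the 5000 strongest (641 genes), 0 for summits inside genes (0 genes) and 4 within 500 bp of either gene end (1514 genes). Leaving out 1 GAF library gave 0 to 0, as 2 libraries against 15 cannot reach so low a p. For Twi, 1 member was called among the 5000 strongest, of 344 genes called among all 13911. Deviations of same-numbered libraries correlated at a mean r of 0.00798 (−0.0219 to 0.0520). Those of differently numbered libraries correlated at a mean r of −0.00399 (−0.0606 to 0.0388). Of the 18 libraries, 11 correlated best with their own number. Whether replicate numbers pair the libraries was left undecided, as the correlations are small and the GAF and Zld numbers uncertain. With the replicate block the count for GAF was 0 and for the other factors 0, in a test whose smallest p is larger than that of the unblocked test.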
